A study of Mus musculus with 53 samples.

Results

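The 9 genes described here encode structural and membrane proteins of the central nervous system myelin sheath: Mbp, Mobp, Mag, Mog, Cnp, Cldn11, Mal, Ermn and Opalin. They were chosen by symbol, and all 9 were among the 12372 genes of the count table. The counts came from bulk RNA sequencing of brainstem, cerebellum, cortex and striatum of 14 male C57BL/6 mice. The 6 SCA3 mice were hemizygous for the MJD84.2 transgene, which holds the whole human ATXN3 gene under its own promoter with a lengthened CAG repeat, and kept their own mouse Atxn3. The 8 wild-type mice lacked the transgene. All mice were untreated, had performed motor tests earlier in life and were sacrificed at 17.5 months of age. Each mouse gave at most 1 library per region, which made 8 wild-type and 6 SCA3 libraries of brainstem, 7 and 6 of cerebellum, 7 and 6 of cortex, and 8 and 5 of striatum. The 53 libraries held between 31.7 and 76.7 M counts (M for mega) assigned to genes. A library is named below by its region, genotype and mouse number.

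Myelin is made by oligodendrocytes, which wrap their membrane around axons and compact it into an insulating sheath that allows rapid conduction. The compact layers are held together by basic proteins on their inner face, whereas adhesion proteins contact the axon, a tight junction protein seals the layers and membrane proteins such as Mal take part in protein and lipid sorting. White matter tracts are dense in brainstem, and the transcripts of these genes are commonly used to follow mature oligodendrocytes. In bulk tissue, fewer oligodendrocytes and less RNA per oligodendrocyte cannot be told apart.

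Start-site sequences are shown first for 4 of these genes, because the transcript level of Mobp and Mal was lower and that of Mag and Mog higher relative to the other members in SCA3 libraries, as described below. RefSeq windows of 300 bases, from 250 before to 50 after an annotated start, were given for 8 of the 9 members (10 windows, GRCm38.p6, 3 of them for Mag). The Mobp window is chr9:120149492-120149791 on the plus strand. Those of Mal at chr2:127656646-127656945, Mag at chr7:30914873-30915172 and Mog at chr17:37023349-37023648 are on the minus strand. All are written 5′ to 3′ along the gene. Capitals mark the letters ACAAAG, the core recognised by SOX factors such as SOX10, and CTGGNAC, each on either strand. CTGGNAC, with N any base, was searched here as a broad pattern for the oligodendrocyte regulator MYRF. A MYRF match below is a match to that pattern, and MYRF need not recognise each of its forms.
Mobp: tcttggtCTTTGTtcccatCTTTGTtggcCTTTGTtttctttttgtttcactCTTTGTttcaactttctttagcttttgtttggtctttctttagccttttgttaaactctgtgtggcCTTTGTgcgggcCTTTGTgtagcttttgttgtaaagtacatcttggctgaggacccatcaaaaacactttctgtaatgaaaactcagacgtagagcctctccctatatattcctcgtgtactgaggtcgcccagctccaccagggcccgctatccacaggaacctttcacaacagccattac
Mal: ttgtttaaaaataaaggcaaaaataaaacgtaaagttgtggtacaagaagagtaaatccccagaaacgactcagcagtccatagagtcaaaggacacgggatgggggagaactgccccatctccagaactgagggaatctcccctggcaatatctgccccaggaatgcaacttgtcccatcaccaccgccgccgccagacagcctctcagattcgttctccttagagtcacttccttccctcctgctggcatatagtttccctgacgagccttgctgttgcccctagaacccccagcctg
Mag: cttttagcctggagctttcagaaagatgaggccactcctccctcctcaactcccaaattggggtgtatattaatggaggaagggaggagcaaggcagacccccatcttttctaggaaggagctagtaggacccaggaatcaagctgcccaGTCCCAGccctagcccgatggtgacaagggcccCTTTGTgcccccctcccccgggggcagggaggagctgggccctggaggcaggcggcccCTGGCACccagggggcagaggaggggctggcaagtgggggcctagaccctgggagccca
Mog: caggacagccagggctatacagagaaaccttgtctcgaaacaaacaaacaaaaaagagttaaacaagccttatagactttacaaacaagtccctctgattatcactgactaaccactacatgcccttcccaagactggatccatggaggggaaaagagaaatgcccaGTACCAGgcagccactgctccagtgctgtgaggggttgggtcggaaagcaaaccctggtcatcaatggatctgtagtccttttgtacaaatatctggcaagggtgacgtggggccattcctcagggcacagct

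The Mobp window held 6 matches to the SOX core, the first 243 and the last 120 bases before the start, each read as CTTTGT on the strand shown. It held no MYRF match. The Mag window shown held 1 SOX core match and 2 MYRF matches, which lay 100 and 9 bases before the start. The Mog window held 1 MYRF match 83 bases before the start and no SOX core match, and the Mal window held neither. The other 2 Mag windows differed from each other: the one starting at base 30914814 held both motifs and the one starting at base 30914272 held neither, so what is found for Mag depends on the start used. For the remaining members, the windows of Cnp and Opalin held both motifs and those of Cldn11 and Ermn held neither. Over all 32851 mouse windows of the same length, 18.7% held the SOX core and 19.3% the broad MYRF pattern. The letters TATAAA were in no member window and in 13.6% of all windows, and the E-box letters CANNTG were in windows of 3 of the 8 members (Mag, Cnp and Opalin) and in 72.3% of all windows. The marked SOX core and MYRF matches did not overlap each other. These matches describe letters only.

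In wild-type mice, all 9 genes were transcribed most strongly in brainstem and striatum and less in cerebellum and cortex. Mbp, which encodes the basic protein that joins the cytoplasmic faces of compact myelin, had by far the highest level. It averaged 8758 ± 2341 CPM (reads relative to the TMM-adjusted size of the library; SD, n = 8) in brainstem, 5012 ± 2021 CPM (n = 8) in striatum, 2332 ± 457 CPM (n = 7) in cerebellum and 2114 ± 533 CPM (n = 7) in cortex. The gene lies at chr18:82475091-82585637 on the plus strand and took between 64.5% and 71.7% of the mean summed CPM of the 9 members in the 8 groups. Per kilobase of annotated exon, the wild-type brainstem level of Mbp was 1034 ± 276 CPM. Cnp followed with 207 ± 32.7, Mal with 160 ± 29.8, Mobp with 155 ± 34.0, Mag with 142 ± 25.9, Cldn11 with 132 ± 27.1, Mog with 97.2 ± 20.5, Ermn with 94.3 ± 23.5 and Opalin with 9.21 ± 1.74 CPM per kilobase (SD, n = 8). Neighbours from Mal to Cldn11 and from Mog to Ermn in this order differed by less than their SD. All exons of a gene were joined for the length, so the per-kilobase level of a gene with many isoforms, such as Mbp, depends on that length.

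**Figure D1:**
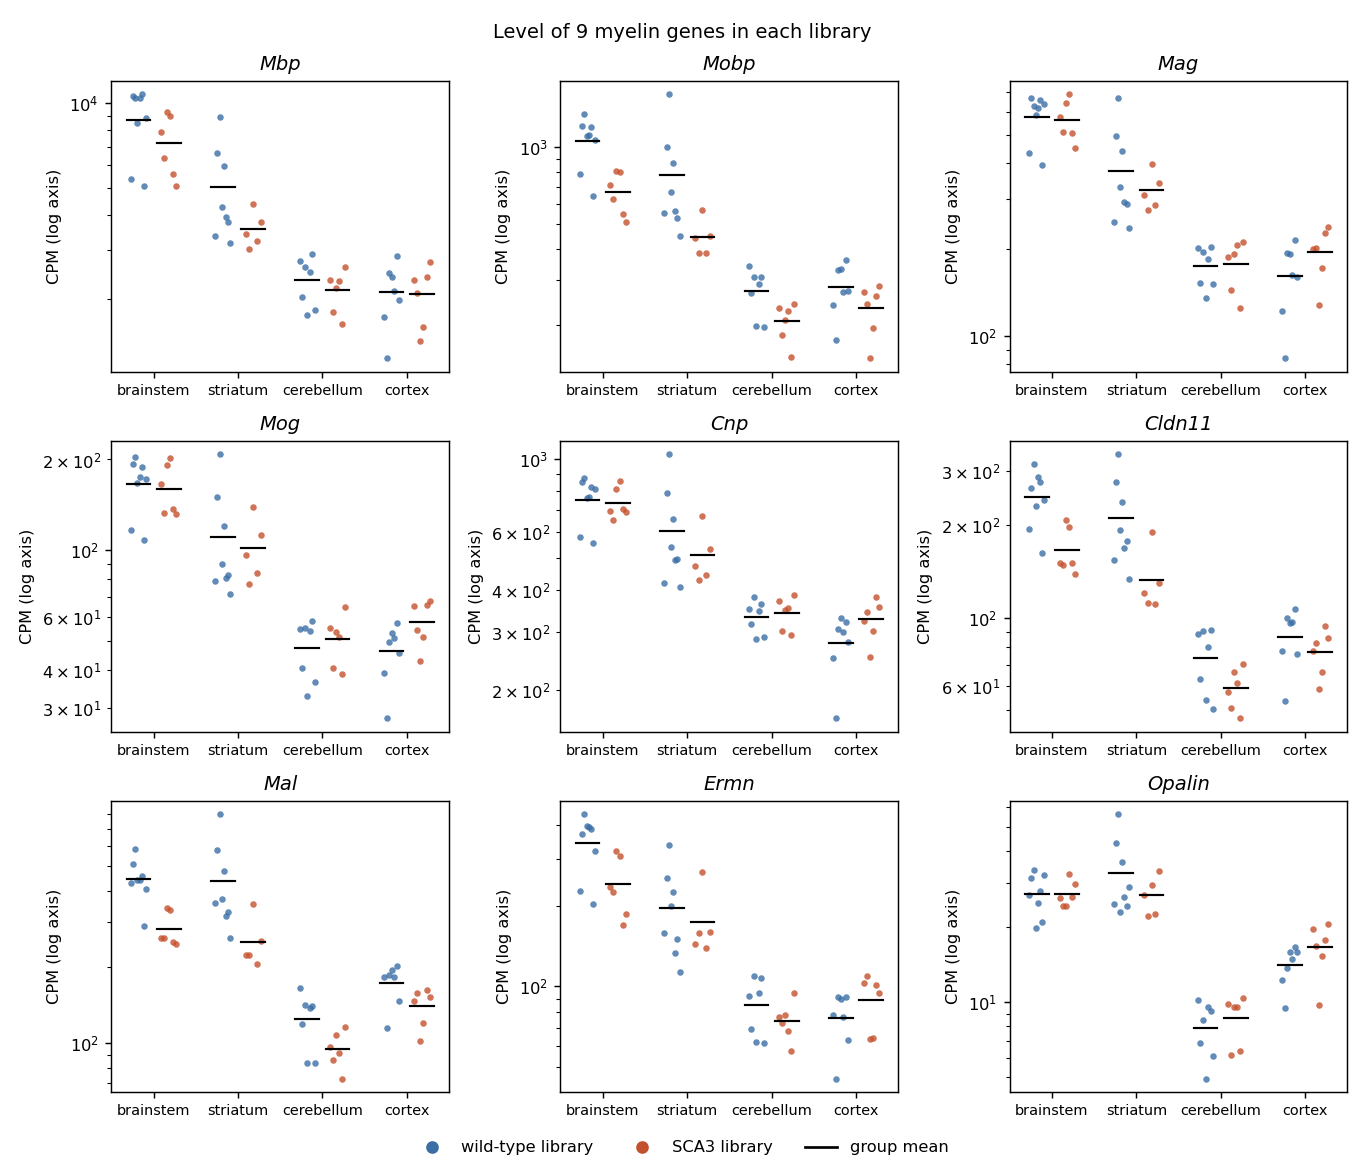
CPM of each of the 9 genes (log axis) in every library by region, with wild-type libraries in blue, SCA3 libraries in red and the group mean as a black bar. Wild-type brainstem and striatum lie above wild-type cerebellum and cortex in every panel.

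The regional contrasts of the wild-type groups were tested with edgeR's likelihood ratio test over all 12372 genes, and a gene was called where its Benjamini-Hochberg adjusted value (FDR, false discovery rate) was below 0.05. All 9 members were called higher in brainstem than in cerebellum, where 37.6% of all genes were, with log2 fold changes between 1.17 (Cnp, SE 0.14) and 2.01 (Ermn, SE 0.2). All 9 were also called higher in brainstem than in cortex (31.1% of all genes), from 0.94 (Opalin, SE 0.17) to 2.17 (Ermn, SE 0.2). Cerebellum and cortex were below striatum for all 9 members, where 35.3% and 16.8% of all genes were called lower. For each member, no wild-type brainstem or striatum library overlapped with the wild-type cerebellum or cortex libraries.

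Brainstem and striatum were closer to each other. Of the 9 members, 6 were called higher in wild-type brainstem than in striatum, against 31.5% of all genes: Mbp and Ermn by 0.81 on the log2 scale, Mag by 0.62, Mog by 0.59, Mobp by 0.44 and Cnp by 0.32. Cldn11, a tight junction claudin of the sheath, differed by 0.23 (95% interval -0.09 to 0.55), Mal by 0.02 (-0.3 to 0.35) and Opalin by -0.27 (-0.6 to 0.05), and these 3 were not called. The wild-type libraries of both regions overlapped for all 9 genes. Between cerebellum and cortex, 2 of 9 members were called lower in cerebellum, against 35.5% of all genes. These were Opalin, a transmembrane sialoglycoprotein of oligodendrocytes, at -0.84 (SE 0.18, FDR 7.6e-06) and Mal at -0.47 (SE 0.18, FDR 0.013). The other 7 had log2 fold changes from -0.23 (Cldn11) to 0.26 (Cnp), and the cerebellum and cortex libraries overlapped for all 9. The mean level of Opalin was 32.8 ± 11.7 CPM (SD, n = 8, median 27.5) in striatum, 27.1 ± 5.12 CPM (n = 8, median 27.3) in brainstem, 14.1 ± 2.56 CPM (n = 7) in cortex and 7.9 ± 1.96 CPM (n = 7) in cerebellum. The highest striatal values of Opalin were those of mice 7267059 (56.2 CPM) and 7267058 (43.1 CPM). The same mice had the highest wild-type striatal values of Mal (798 and 579 CPM). The wild-type median of Mal was 365 CPM in striatum and 440 CPM in brainstem. These 2 libraries also had the highest thalamic marker levels of striatum, as given below, and the part of these in the regional contrasts was not tested.

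The genotype comparison asked whether transcription of these genes differed between SCA3 and wild-type mice in each region. Mobp, Mal and Cldn11 had the 3 lowest log2 fold changes of the members in each of the 4 regions. All 3 were called lower in striatum, and Mal was also called lower in brainstem. Mag, Mog, Cnp and Opalin were not called in any region, and neither were Mbp and Ermn. No member was called higher in any region.

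Mal encodes a proteolipid of compact myelin that takes part in the sorting of myelin membrane proteins, and lies at chr2:127633226-127656695 on the minus strand. In brainstem its level ranged from 291 to 581 CPM with a median of 440 in the 8 wild-type libraries, and from 247 to 342 CPM with a median of 260 in the 6 SCA3 libraries. Every SCA3 library was below 7 of the 8 wild-type libraries, and the overlap came from the wild-type library of mouse 9083373. The log2 fold change was -0.65 (SE 0.18, FDR 0.025). The call was lost without SCA3 mouse 7267054 (FDR 0.092), 7267056 (FDR 0.06), 9083514 (FDR 0.1) or 9083515 (FDR 0.11), while the log2 fold change stayed between -0.73 and -0.59 whichever mouse was left out. In limma-voom the FDR was 0.051, and 0.057 with the mouse as a block. In striatum the wild-type levels were 261 to 798 CPM with a median of 365, and the SCA3 levels were 205, 222, 223, 254 and 353 CPM. There, 5 of 8 wild-type libraries were above all SCA3 libraries, and the SCA3 library of mouse 9082853 was the high one. The log2 fold change in striatum was -0.8 (SE 0.19, FDR 0.0033). This call was lost at a RIN of at least 7 (FDR 0.062), in the largest series of mouse numbers (FDR 0.45) and in striatum alone (FDR 0.12), and there a thalamic marker score in the fit brought the value to -0.48 (FDR 0.39). In cerebellum (-0.39, 95% interval -0.75 to -0.02) and cortex (-0.3, -0.67 to 0.06) Mal was not called, with an FDR of 1 in both.

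Mobp encodes a small basic protein of compact myelin and lies at chr9:120149742-120181488 on the plus strand. In striatum the wild-type libraries held 447 to 1618 CPM with a median of 615, and the SCA3 libraries held 383, 385, 442, 447 and 569 CPM. The highest wild-type value belonged to mouse 7267059, and 4 of 8 wild-type libraries were above all SCA3 libraries. Mobp was called lower there (log2 fold change -0.81, SE 0.21, FDR 0.0085), and the call was lost without SCA3 mouse 7267056 (FDR 0.061) or wild-type mouse 7267059 (FDR 0.065). It was also lost at a RIN of at least 7 (FDR 0.064), in the largest series of mouse numbers (-0.53, FDR 0.62) and in striatum alone (FDR 0.16). A thalamic marker score in that last fit brought the value to -0.46 (FDR 0.6). In brainstem the wild-type levels were 645 to 1348 CPM (median 1110) and the SCA3 levels 509 to 805 CPM (median 670). All SCA3 libraries were below 6 of the 8 wild-type libraries. The brainstem log2 fold change of -0.67 (SE 0.2) had an FDR of 0.053 and was not called. The values in cerebellum (-0.39, 95% interval -0.8 to 0.02) and cortex (-0.27, -0.68 to 0.13) were not called.

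Cldn11 encodes the claudin of the radial tight junctions of myelin and lies at chr3:31149920-31164326 on the plus strand. In striatum its wild-type levels were 134 to 341 CPM with a median of 186, and its SCA3 levels were 111, 112, 120, 130 and 190 CPM. All SCA3 libraries except that of mouse 9082853 were below every wild-type library. It was called lower there (log2 fold change -0.67, SE 0.18, FDR 0.013), and the call was lost without SCA3 mouse 7267054 (FDR 0.068), 7267056 (FDR 0.082) or 9083515 (FDR 0.057) or wild-type mouse 7267059 (FDR 0.064). It was also lost at a RIN of at least 7, in the largest series of mouse numbers and in striatum alone. A thalamic marker score in that last fit brought the value to -0.42, which was not called. In brainstem the wild-type libraries held 163 to 318 CPM (median 253) and the SCA3 libraries 139 to 208 CPM (median 151), with a log2 fold change of -0.57 (SE 0.17) and an FDR of 0.058. The log2 fold changes in cerebellum (-0.33, 95% interval -0.68 to 0.03) and cortex (-0.16, -0.52 to 0.19) were not called.

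Of all genes tested, 1.15% were called lower and 0.776% higher in brainstem, against 1 of 9 members lower and 0 higher. In striatum 5.47% of all genes were called lower and 2.07% higher, against 3 of 9 members lower and 0 higher. In cerebellum 0.0242% were called lower and 0.0404% higher, and in cortex 0.0323% and 0.121%, with 0 of 9 members called in either. The median log2 fold change of the members was -0.28 in brainstem, -0.29 in striatum, -0.12 in cerebellum and 0.22 in cortex, and that of all genes was 0.003, -0.003, -0.004 and -0.002. The combined test, which covers the genotype effect of all 4 regions together, called Mal (FDR 3.6e-05), Mobp (FDR 5e-04) and Cldn11 (FDR 0.0014), 3 of 9 members against 4.73% of all genes. With limma-voom and the mouse as a random block this test called 1 of 9, Mal (FDR 0.034), and not Mobp (FDR 0.097) or Cldn11 (FDR 0.098), and 297 of the 12372 genes against 585 in the edgeR test. The test of whether the genotype effect differed between regions called 0 of 9 members (smallest FDR 0.67, for Ermn) against 0.218% of all genes, so that no difference between regions is shown for any member.

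**Figure D2:**
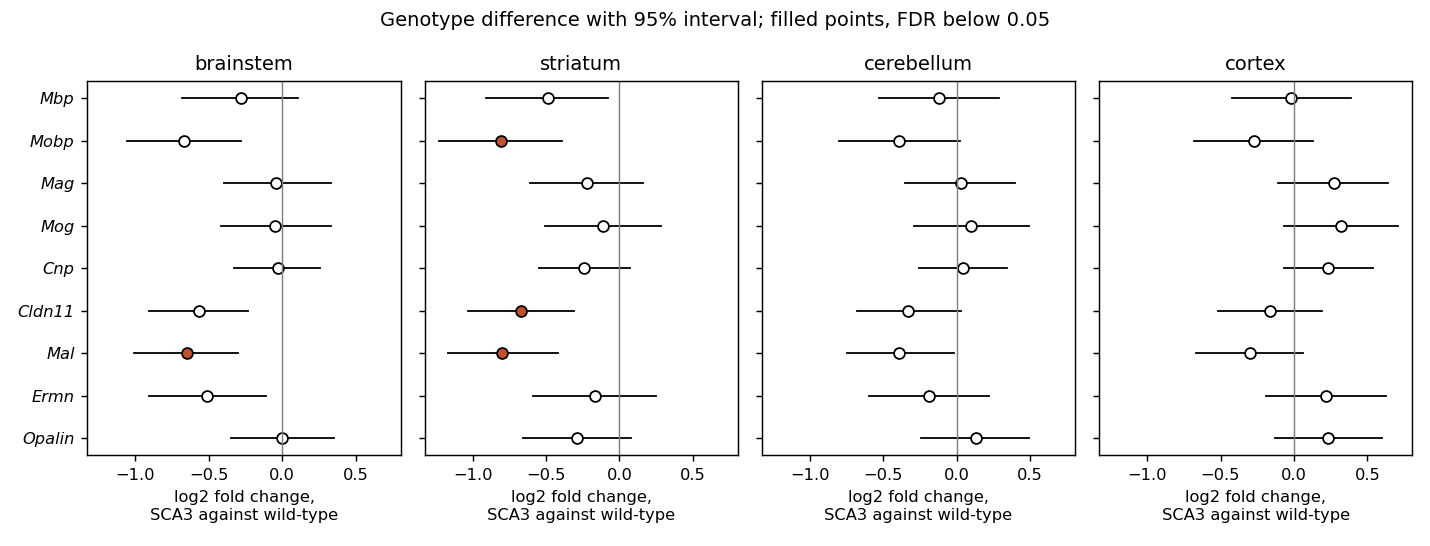
Log2 fold change of SCA3 against wild-type for each gene in each region, with 95% intervals from the edgeR fit and filled points for an FDR below 0.05. The filled points are Mal in brainstem and Mobp, Cldn11 and Mal in striatum.

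The adhesion and surface proteins gave intervals around zero. Mag, a sialic acid-binding glycoprotein that faces the axon (chr7:30899175-30914922, minus strand), ranged from 393 to 670 CPM in wild-type and 448 to 690 CPM in SCA3 brainstem. Its log2 fold change there was -0.04 (95% interval -0.4 to 0.33), and in striatum -0.22 (-0.61 to 0.16). Mog, an immunoglobulin-domain protein of the outermost layer (chr17:37010740-37023398, minus strand), ranged from 108 to 204 CPM and from 132 to 202 CPM in the same brainstem groups. Its log2 fold change was -0.05 (-0.42 to 0.33) in brainstem, -0.11 (-0.51 to 0.28) in striatum and 0.32 (-0.07 to 0.71) in cortex. Opalin (chr19:41061959-41077113, minus strand) ranged from 19.7 to 33.6 CPM in wild-type and from 24.2 to 32.5 CPM in SCA3 brainstem, a log2 fold change of 0 (-0.35 to 0.35). Its striatal value was -0.29 (-0.66 to 0.08).

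Mbp itself was not called. Its brainstem levels were 5077 to 10782 CPM with a median of 9663 in wild-type and 5082 to 9283 CPM with a median of 7140 in SCA3 libraries, which overlapped widely (log2 fold change -0.28, 95% interval -0.68 to 0.11). In striatum the wild-type levels were 3177 to 8966 CPM (median 4106) and the SCA3 levels 3025 to 4377 CPM (median 3408), with a log2 fold change of -0.49 (-0.91 to -0.08) and an FDR of 0.14. This striatal value lay between -0.58 and -0.32 over single mice left out. Over all alternatives it lay between -0.58 and -0.21 (FDR 0.086 to 0.87). Cnp, the phosphodiesterase of non-compact myelin (chr11:100574909-100591875, plus strand), had a log2 fold change of -0.03 (-0.33 to 0.26) in brainstem and -0.24 (-0.55 to 0.07) in striatum. Cnp shares 8912 bases of its span, 154 of them exonic, with Dnajc7 on the opposite strand, and reads there were counted without strand. Ermn encodes a cytoskeletal protein of the outer sheath and lies at chr2:58045115-58052864 on the minus strand. In brainstem it ranged from 203 to 439 CPM (median 379) in wild-type and from 169 to 321 CPM (median 231) in SCA3 libraries, and its log2 fold change of -0.51 (-0.91 to -0.11) had an FDR of 0.22. In striatum its log2 fold change was -0.17 (-0.59 to 0.25).

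Because the members varied together between libraries to differing degrees, their levels were also compared within each library. After the group means were taken off the log2 CPM values, the 36 pairs of members had Pearson correlations between 0.632 (Ermn with Opalin) and 0.964 (Mbp with Mobp) over the 53 libraries, with a median of 0.919. The median of the pairs was 0.903 within brainstem, where the lowest pair had 0.254, 0.922 within cerebellum, 0.911 within cortex and 0.966 within striatum. The points share the dissection and the library, so these values are a description. The wild-type striatum library of mouse 7267059 was the highest of its group for all 9 members, and the wild-type cortex library of mouse 7267058 was the lowest of its group for all 9. A ratio of members in the same library is free of the amount of myelin RNA common to them only where they scale in equal proportion. They did not do so fully. In wild-type brainstem the highest library was 2.12 times the lowest for Mbp, 1.71 times for Mag and 1.56 times for Cnp. The ratios below can therefore still move with that amount.

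Relative to Mbp, Mobp was lower in every SCA3 library than in every wild-type library of the same region, in all 4 regions. In brainstem the log2 ratio of Mobp to Mbp was -3.03 ± 0.15 (SD, n = 8) in wild-type, between -3.23 and -2.77, and -3.42 ± 0.09 (n = 6) in SCA3, between -3.53 and -3.32. The SCA3 minus wild-type difference was -0.39 in brainstem, -0.27 in cerebellum, -0.27 in cortex and -0.29 in striatum. Among all genes, the share whose ratio to Mbp was lower in all SCA3 than in all wild-type libraries was 0.097% in brainstem, 0.0728% in cerebellum, 0.0243% in cortex and 0.0647% in striatum. Mobp was the member with this separation in each region, 1 of 8. In the other direction, the ratio to Mbp was higher without overlap for 0 of 8 members in brainstem, for Mog in cerebellum (difference 0.22), for Mag and Mog in cortex (0.31 and 0.35) and for Mag, Mog and Cnp in striatum (0.27, 0.37 and 0.22). The shares of all genes in that direction were 0.356%, 0.194%, 0.194% and 1.32%. Members varied together with Mbp, which narrows their ratios to it, so the shares over all genes are not a like-for-like background. These ratios are described without a test.

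The ratio was also taken to the mean log2 level of the other 8 members in place of Mbp. Mobp and Mal were lower, and Mog higher, in all SCA3 than in all wild-type libraries of all 4 regions. The difference for Mal was -0.39 in brainstem, -0.28 in cerebellum, -0.41 in cortex and -0.42 in striatum, and that for Mobp was -0.4, -0.3, -0.38 and -0.38. For Mog it was 0.29, 0.25, 0.3 and 0.35. Within the largest series of mouse numbers (4 wild-type and 3 SCA3 libraries of brainstem) the brainstem difference of Mal was -0.25. In striatum the log2 ratio of Mal to the others was 0.41 ± 0.09 (SD, n = 8) in wild-type and -0.01 ± 0.09 (n = 5) in SCA3 libraries. Mag was higher without overlap in brainstem (0.3), cortex (0.26) and striatum (0.24), Cnp in brainstem (0.31) and striatum (0.19), and Cldn11 was lower without overlap in brainstem (-0.29). The ranges of Mbp, Ermn and Opalin overlapped between genotypes in all 4 regions. Of the 12363 genes that are not members, the ratio to the mean of the members separated the genotypes in either direction for 1.63% in brainstem, 0.218% in cerebellum, 0.218% in cortex and 0.946% in striatum. The members varied together, which narrows their ratios to each other, so these shares are not a like-for-like background for them. A member's ratio to the others falls when the others are higher, so these differences are relative to the set and are not changes in level.

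**Figure D3:**
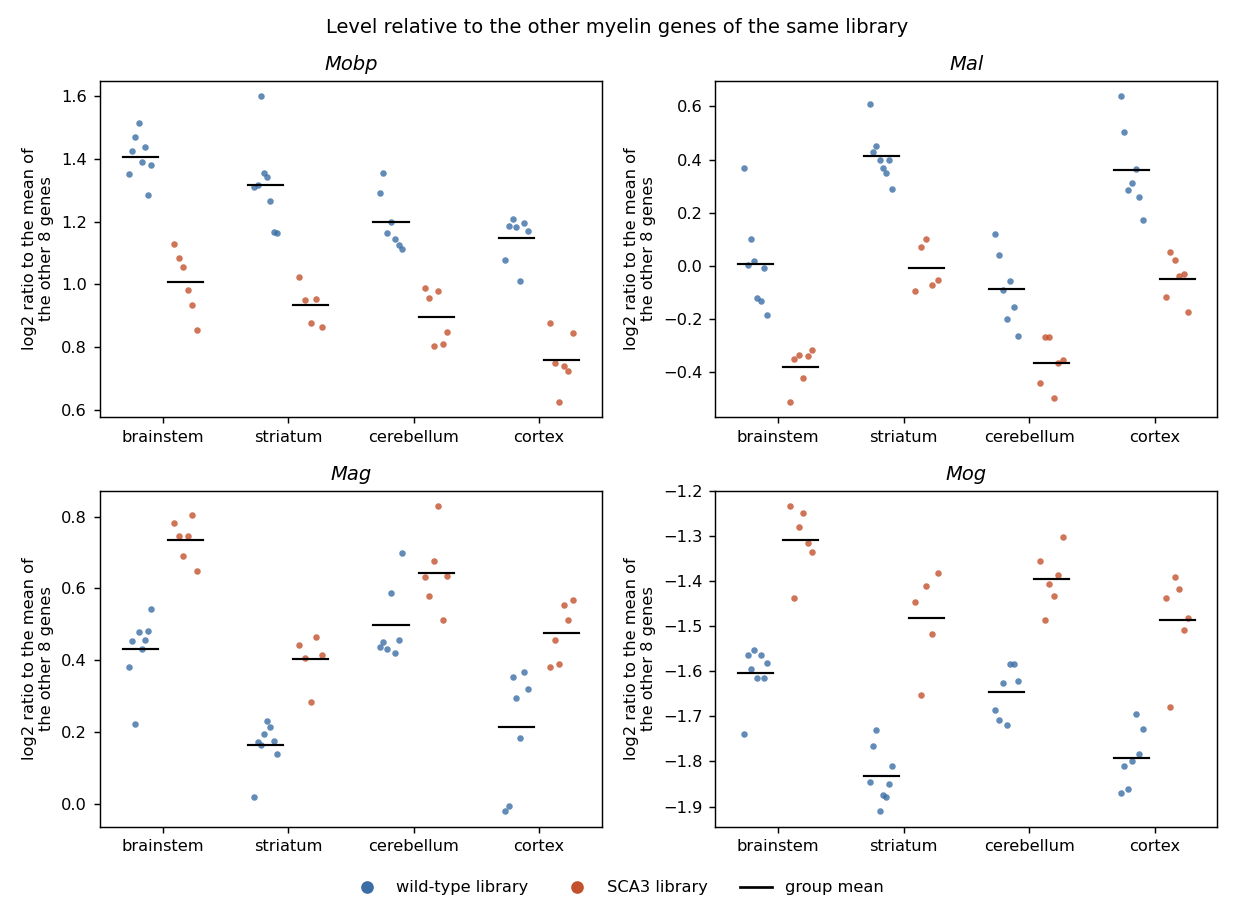
Log2 CPM of Mobp, Mal, Mag and Mog minus the mean log2 CPM of the other 8 members of the same library, by region, with wild-type libraries in blue, SCA3 libraries in red and the group mean as a black bar. SCA3 libraries lie below all wild-type libraries of their region for Mobp and Mal and above them for Mog, and the Mag ranges meet in cerebellum.

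Other genes of the sheath and of the lineage were read from lists, which were chosen with earlier results of these data known. Their counts of calls are therefore a description. Of all genes, 1.15% were called lower in brainstem and 5.47% in striatum. Of 19 other sheath protein genes, 3 were called lower in brainstem and 3 in striatum, and in both regions Tspan2 and Pmp22 were among them. The tetraspanin gene Tspan2 had a log2 fold change of -0.87 (SE 0.14, FDR 1.8e-06) in brainstem and -0.99 (SE 0.15, FDR 3.3e-07) in striatum. Pmp22, which encodes a tetraspan membrane protein best known from peripheral myelin, had -0.71 (SE 0.18, FDR 0.0091) and -0.73 (SE 0.19, FDR 0.0079). Anln was called higher in cortex (0.77, SE 0.19, FDR 0.034), and no gene of the list was called in cerebellum. The list medians were -0.11, -0.14, 0.11 and -0.04 in brainstem, striatum, cortex and cerebellum.

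Of 12 enzymes of myelin lipid synthesis, 3 were called lower in brainstem (Aspa, Ugt8a and Hmgcs1) and 3 in striatum (Ugt8a, Aspa and Fa2h), with none called in cerebellum or cortex. Ugt8a makes galactosylceramide, the most typical myelin lipid, and changed by -0.83 (SE 0.19, FDR 0.0035) in brainstem and -0.71 (SE 0.2, FDR 0.016) in striatum on the log2 scale. The list medians were -0.31 in brainstem and -0.2 in striatum.

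The calls among 10 listed regulators of oligodendrocyte development were higher. In brainstem 4 of them were called higher and 0 lower, in striatum 2 higher and in cerebellum and cortex 1 each. Of all genes, 0.776%, 2.07%, 0.0404% and 0.121% were called higher in brainstem, striatum, cerebellum and cortex. Because the list was chosen with earlier results of these data known, these counts show no trend among such regulators. The list median was 0.38 in brainstem, 0.15 in cerebellum, 0.25 in cortex and 0.02 in striatum, where 5 of 10 values were below 0. Zfp488, a zinc finger repressor of the oligodendrocyte lineage, was called higher in all 4 regions, by 1.79 in brainstem, 1.45 in cortex, 1.29 in striatum and 1.25 in cerebellum on the log2 scale, with SEs of 0.17 to 0.18 and FDRs of 6.7e-08 or less. Sox8 (0.58) and Olig1 (0.56) were among the others in brainstem. Myrf and Sox10, which drive transcription of myelin genes, were not called in any region, with brainstem values of -0.11 (SE 0.17) and 0.03 (SE 0.14).

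The genes whose pattern was most like the mean of the members were found by Pearson correlation over all genes. Over the 30 wild-type libraries these included Gatm (0.996), Tmem88b (0.992), Gpr37 (0.991) and Myrf (0.99), where regional differences set most of the pattern. After removal of the group means, over 53 libraries, they were Tmem88b (0.966), Gatm (0.962), Plekhb1 (0.957), Prr5l (0.956) and Bcas1 (0.956). Among the members, Opalin was the least like the others, with 0.839 to its nearest member Mog.

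Other values moved with the genotype groups in the regions where members were called. In brainstem the RNA integrity number (RIN) was 7.24 ± 0.42 (SD, n = 8) in wild-type and 7.78 ± 0.26 (n = 6) in SCA3 libraries, and with RIN as a covariate the log2 fold change of Mal was -0.6 with an FDR of 0.078. Of 8 astrocyte markers, 3 were called lower in brainstem (Gja1 -0.58, Slc4a4 -0.45 and Fgfr3 -0.29) and 3 in striatum (Gja1 -0.47, Aldh1l1 -0.34 and Fgfr3 -0.24). Their summed level was 1888 to 4454 CPM in wild-type and 1707 to 2803 CPM in SCA3 brainstem, and 1480 to 2499 CPM against 1344 to 1649 CPM in striatum. Of 7 precursor markers, 8 microglial, 8 endothelial and 8 neuronal markers, at most 1 of a list was called in any region. In brainstem 3 of 7 precursor, 8 of 8 microglial (median -0.14), 4 of 8 endothelial and 7 of 8 neuronal values (median -0.07) were below 0. In cerebellum 8 of 8 endothelial values were below 0 (median -0.24). Of the Schwann cell markers only Drp2 was in the table and it was not called. The part of the astrocyte markers in the member results was not tested. The regional labels were read against regional markers: Cbln1 and Cbln3 summed to 1522 to 2493 CPM in cerebellum and at most 146 CPM elsewhere, and the brainstem marker Glra1 was at 22.9 to 178 CPM in brainstem and at most 18.7 CPM elsewhere. The 2 cortical markers in the table summed to 68.5 to 364 CPM in cortex and reached 251 CPM in brainstem, so they did not set cortex apart.

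In striatum, 7 of 10 measured thalamic marker genes were called lower in SCA3, with a list median of -1.84. Their summed level was 227 to 3011 CPM in the 8 wild-type and 227 to 526 CPM in the 5 SCA3 libraries. The wild-type libraries of mice 7267059 (3011 CPM) and 7267058 (1921 CPM) were the highest, and had the highest summed levels of the 9 members, 14021 and 10251 CPM. The wild-type library of mouse 9083371 had 227 CPM of thalamic markers and 9015 CPM of the members. The 6 markers of striatal projection neurons summed to 1048 to 5013 CPM in wild-type and 3130 to 4694 CPM in SCA3 libraries, with medians of 2392 and 4392 CPM. Of these 6 genes 0 were called, their median log2 fold change was 0.51 and none was below 0. The part of the striatal markers in the member results was not tested. Without mouse 7267059, Mal stayed called in striatum, whereas Mobp (-0.57, FDR 0.065) and Cldn11 (-0.53, FDR 0.064) did not. In a fit of the striatal libraries alone, 0 of 9 members were called (Mal -0.8, FDR 0.12), and over all genes 88 were called there against 933 in the fit of all libraries. Once the thalamic markers entered that fit as a score, 84 of all genes were called, and the values were -0.48 for Mal (FDR 0.39), -0.46 for Mobp (FDR 0.6) and -0.42 for Cldn11 (FDR 0.47). In brainstem 0 of the 10 thalamic markers were called (list median 0.01), but 3 brainstem libraries had a higher thalamic score (mean log2 CPM of the markers) than the others: wild-type mouse 7267055 (6.04) and SCA3 mice 9083514 (5.94) and 9083515 (5.88), against 4.97 to 5.51. The mean log2 level of the 9 members in these 3 libraries lay below their group mean, at -0.35, -0.2 and -0.23. The brainstem library furthest below its group mean was that of wild-type mouse 9083373 (-0.57), with a score of 5.17. In a fit of the brainstem libraries alone Mal had a log2 fold change of -0.66 (FDR 0.00019). With the score in that fit it was also -0.66 (FDR 0.00025).

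**Figure D4:**
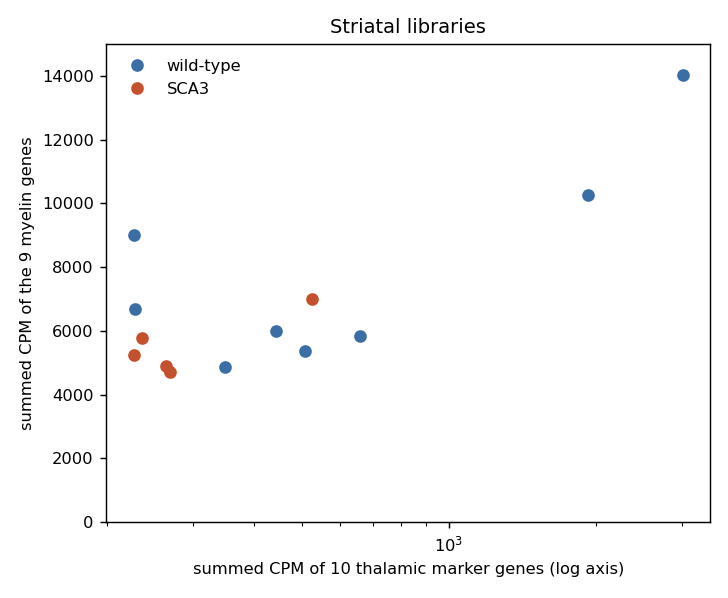
Summed CPM of the 9 myelin genes (linear axis) against summed CPM of 10 thalamic marker genes (log axis) in each striatal library, with wild-type in blue and SCA3 in red. The wild-type libraries at 1921 and 3011 CPM of thalamic markers have the highest myelin sums, and all 5 SCA3 libraries lie at or below 526 CPM of thalamic markers.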

How the data were processed

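The authors deposited raw counts of reads per gene for 53 libraries. According to the study's methods and the labels' processing notes, poly-A libraries without strand information were trimmed (cutadapt 1.10), aligned to GRCm38 with STAR 2.3.0e keeping unique reads, and counted per RefSeq gene with HTSeq 0.6.1, and genes averaging above 4 CPM were kept. Reads shared by overlapping or near-identical genes are therefore uncertain. The counts were fitted here with edgeR 4.0.16 (R 4.3.3) after TMM normalisation, in 1 negative binomial fit of 8 groups, with likelihood ratio tests and Benjamini-Hochberg adjustment over all 12372 genes. Intervals are the estimate ± 1.96 SE. Log2 CPM used a prior count of 2.

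The members and gene lists were chosen with earlier results of these data known. All 9 members are named; list genes could be named by smallest FDR, at most 3 per list and region, or as defining markers, and Myrf and Sox10 were named for the motifs searched, after their values were seen. Genes most like the members were the 5 with the highest correlation. Values of 1 gene that these rules name are not reported here. Positions and windows come from RefSeq GRCm38.p6 and exon lengths from GENCODE. No promoter window was printed for Mbp, and no protein sequence was used here.

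Mice pair the regions: after removal of group means, libraries of the same mouse had a mean r between regions of 0.0904 to 0.186, and the block correlation in limma 3.58.1 was 0.14. Each library is from a separate mouse within its group. Alternatives were DESeq2 1.42.0, edgeR's quasi-likelihood test, limma-voom (unblocked, or blocked on the mouse), other scalings, a minimum of 10 counts, RIN and number series (the leading digits of the mouse number) as covariates or limits, each region alone, and each mouse left out. For the ratios, the RIN limit and the largest series alone, and for those to Mbp leaving out mice, were chosen after seeing the data. Depth was 31.7 to 76.7 M counts.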

Additional observations from a re-analysis of the deposited data

Results flagged for a closer look

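Among 72 sets of values (9 genes in 8 groups), 2 held a library whose gap to the nearest other library took an unusually large part of the group's range. Both were the SCA3 striatum library of mouse 9082853, with 190 CPM of Cldn11 (next highest 130 CPM) and 268 CPM of Ermn (next highest 159 CPM). Chance alone marks about 1 in 20 such groups, and members of 1 library are not independent of each other. Without this mouse the striatal log2 fold change of Cldn11 was -0.83 (FDR 0.0017 with edgeR), and that of Ermn was -0.38 (FDR 0.27), which was not called.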

How the results depend on the processing

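The members called lower in brainstem (1 as reported) numbered 3 with DESeq2, 2 with RLE size factors, 3 once the number series of the mice was a covariate, 3 in a fit of brainstem alone and 3 there with the thalamic marker score. The number was 0 with RIN as a covariate, 0 at a RIN of 7 or more, 0 in the largest number series alone and 0 with limma-voom, both without the replicate block and with the mouse as block. Leaving out each mouse gave 0 to 3, with 120 (without SCA3 mouse 9083514) to 309 (without SCA3 mouse 7267056) of all genes called. Over all genes 238 were called in brainstem as reported, and 308 with DESeq2, 245 with RLE, 349 with the series, 392 in brainstem alone, 513 with the thalamic score, 177 with RIN as a covariate, 202 at the RIN limit, 242 in the largest series, 245 with limma-voom and 254 with its block. In striatum (3 as reported) the number was 0 with a RIN of at least 7, 0 in the largest series alone, 0 in striatum alone and 0 with the thalamic score, and leaving out each mouse gave 1 to 3, with 1 left without wild-type mouse 7267059 and 1 without SCA3 mouse 7267056. The calls over all genes in striatum fell alongside, from 933 to 139 at the RIN limit, 30 in the largest series, 88 in striatum alone, 84 with the thalamic score, 477 without mouse 7267059 and 301 without mouse 7267056. In cerebellum alone 21 of all genes were called, and Mal (FDR 0.99) and Mobp (FDR 0.7) were not. With the thalamic score in that fit 2 members were called, Mal (-0.35, FDR 0.00035) and Mobp (-0.37, FDR 0.0015), against 0 as reported. Of all genes 72 were called there, against 8 as reported. The thalamic markers had a median sum of 1075 CPM in wild-type cerebellum against 897 CPM in brainstem, so there the score is not specific to thalamic tissue. The combined test called 1 member with the mouse as block and 0 in the largest series alone, against 3, and 297 and 263 of all genes against 585. Over single mice left out it called from 278 (without SCA3 mouse 9083515) to 1049 of all genes (without wild-type mouse 9082857). For wild-type cerebellum against cortex, leaving out each mouse gave 1 to 2 members, 1 without mouse 9083371, with 8305 of all genes called against 8629. The causes were not tested. For the other pairings of regions and the test of region dependence, the number of members called, though not that of all genes, was within 1.5 times under each alternative run, the blocked fits included. Over all genes, region dependence called 27 as reported and from 1 (quasi-likelihood) to 263 (without wild-type mouse 9082857), and wild-type cortex against striatum called 1354 in the largest series.

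Over all alternatives the brainstem log2 fold change of Mal lay between -0.73 and -0.52 (FDR 0.00019 to 0.33). In striatum that of Mal lay between -0.95 and -0.48 (FDR 0.0006 to 0.45), that of Mobp between -0.91 and -0.46 and that of Cldn11 between -0.83 and -0.42. No called value changed sign. The ratio of Mobp to Mbp differed by -0.28 (brainstem), -0.23 (cerebellum), -0.24 (cortex) and -0.26 (striatum) within the largest series, and by -0.38, -0.27, -0.27 and -0.28 at a RIN of at least 7. Others moved more: within the largest series the brainstem ratio of Mal to Mbp differed by -0.11 against -0.38 and that of Cldn11 by -0.15 against -0.3. Those of Opalin (0.58 against 0.28), Cnp (0.44 against 0.24), Mog (0.37 against 0.22) and Mag (0.34 against 0.23) grew. To the other 8 members, the brainstem difference of Mal in that series was -0.25 against -0.39 and that of Cldn11 -0.29 in both. Over single mice left out, the difference in the ratio of Mobp to Mbp lay between -0.42 and -0.36 in brainstem and between -0.3 and -0.25 in striatum. All members are deeply counted, so the spread between mice, not counting error, sets the width of these intervals.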
